A study of Mus musculus with 4 samples.

Results

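The potassium channel genes of the newborn mouse cortex are described here across 4 RNA-seq libraries. Members were the protein-coding genes of the deposited table whose symbol starts with Kcn, a subfamily letter or letters and a number, and that had a count in at least 1 library. This gave 85 genes out of 55414 rows of the table. Another 8 protein-coding genes with such symbols had 0 counts in every library. The libraries labelled cKO (replicates 2 and 3) came from Mkk7flox/flox mice that carried Emx1-Cre, and the libraries labelled Control (replicates 2 and 3) from Mkk7flox/flox mice, so both groups carried the floxed alleles. All were cerebral cortex of C57BL/6J mice on postnatal day 1. MKK7 is the JNK-activating kinase encoded by Map2k7. Emx1-Cre recombines in dorsal telencephalic progenitors and in the excitatory neurons and glia derived from them, not in interneurons, striatal neurons, microglia or vessels, which whole-tissue RNA also contains.

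Potassium channels let potassium leave the cell, set the resting potential, end the action potential and limit repetitive firing. Voltage-gated (Kv) alpha subunits assemble as tetramers around 1 pore, inward rectifiers (Kir) hold the membrane near rest, tandem-pore (K2P) channels carry leak current, and calcium- or sodium-activated channels follow activity. Auxiliary subunits (Kv beta, KCNE, KChIP and BK beta) form no pore of their own and change the surface delivery and gating of the alpha subunits. In the cortex around birth, many of these channels are still being switched on as neurons acquire mature firing.

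Pore-forming members carry a selectivity filter, the short stretch that lets potassium but not sodium through. The pattern searched for here follows that known filter, so matches in these genes were largely fixed in advance. A match alone does not identify a channel gene. The coding sequences of GENCODE M21 (build GRCm38, longest per gene) were searched in the reading frame and on the coding strand only for 4 codons in a row spelled NTN, GGN, TAN or TTN, and GGN, where N is any base. The forms with TAN and TTN exclude each other at a position. Of 77 alpha subunit genes, those without counts included, 75 held at least 1 match, and none of the 16 auxiliary subunit genes did. Among all other protein-coding genes 1069 of 21650 (4.94%) held a match. Of 14 K2P genes 11 held 2 matches, against 0.319% of other protein-coding genes. The 2 alpha subunit genes without a match were Kcnk1 and Kcnk7. For Kcnk1, the most abundant K2P gene here, the shorter run GGN, TAN, GGN was found 1 time and its stretch is printed with the others.

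Stretches of 45 bases are printed for pore-forming members with an unadjusted p below 0.05 between groups, and for Kcnk1 and Kcna3 as abundant members. Capitals mark the 5 codons of the filter. The GRCm38 positions are chr14:20145100-20146522 and chr14:20142456-20144677 (Kcnk5, minus strand, each with an intron inside), chr11:100750278-100750322 (Kcnh4, minus), chr2:25894352-25894396 (Kcnt1, plus), chr1:87389006-87389050 (Kcnj13, minus), chr11:111072192-111072236 (Kcnj2, plus), chr8:125995793-126025034 (Kcnk1, plus, with an intron inside) and chr3:107037596-107037640 (Kcna3, plus). A match describes the letters only.
Kcnk5, first match: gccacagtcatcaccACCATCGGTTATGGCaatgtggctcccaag
Kcnk5, second match: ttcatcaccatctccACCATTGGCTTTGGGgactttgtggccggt
Kcnh4: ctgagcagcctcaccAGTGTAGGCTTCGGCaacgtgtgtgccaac
Kcnt1: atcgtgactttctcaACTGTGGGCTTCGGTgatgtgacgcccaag
Kcnj13: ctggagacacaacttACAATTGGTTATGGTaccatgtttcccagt
Kcnj2: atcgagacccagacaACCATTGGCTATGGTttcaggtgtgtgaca
Kcnk1: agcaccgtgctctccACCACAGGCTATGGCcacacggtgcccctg
Kcna3: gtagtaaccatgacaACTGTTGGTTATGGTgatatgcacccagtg

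Library totals lay between 19421470 and 22511175 estimated counts, and 80 or 81 of the members had a count in any 1 library. Map2k7 stood at 47.9 and 48.2 CPM (counts scaled to the normalised library size) in the cKO libraries, against 38.4 and 30.4 CPM in the Control libraries (log2 fold change 0.48, SE 0.18, edgeR adjusted p = 0.428). It was thus not lower in cKO. Emx1 stood at 22.5 and 17.2 CPM in cKO and 12.6 and 11.1 CPM in Control (edgeR adjusted p = 0.399). Sums over a whole gene do not check a deletion of some exons, so each direction rests on the labels. Xist had 1218 and 0 counts in cKO 2 and cKO 3 and 1145 and 1004 counts in Control 2 and Control 3, while Ddx3y had 985 counts in cKO 3 and 0 in the other libraries: cKO 3 came from a male and the others from females. Being of different sex, cKO 2 and cKO 3 stem from different animals. Whether Control 2 and Control 3 stem from different animals is not stated in the labels. The p-values therefore reflect library-to-library spread, which within Control may be technical. In whole tissue, fewer cells of a type and less RNA per cell cannot be told apart.

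By level per transcript length (TPM, a transcript abundance scaled by length), the auxiliary subunits were the most abundant class. They held 231 and 266 TPM in cKO 2 and cKO 3 and 271 and 256 TPM in Control 2 and Control 3, or 41.2% of all TPM of the members on average. K2P channels followed at 68.0 and 92.7 TPM in cKO against 81.2 and 77.0 TPM in Control, and the calcium- and sodium-activated subunits at 44.1 and 65.4 TPM against 55.0 and 45.9 TPM. All members together summed to 547 and 680 TPM in the cKO libraries and to 645 and 614 TPM in the Control libraries, so the groups overlapped and cKO 2 was lowest. Of the 85 members, 66 had a mean of at least 1 TPM over the 4 libraries, 32 of at least 5 TPM and 7 of at least 20 TPM.

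Kcnmb4, which encodes the neuronal beta subunit of the BK channel, had the highest mean TPM of the members, 74.7 ± 5.77 TPM in cKO and 71.8 ± 6.01 TPM in Control (SD, n = 2 each). Next came genes of KChIPs, the calcium-binding partners of Kv4 channels: Kcnip1 at 39.2 ± 10.7 and 57.8 ± 1.22 TPM and Kcnip2 at 43.4 ± 5.30 and 41.9 ± 2.44 TPM in cKO and Control. Kcnip1 was below Kcnip2 in both cKO libraries (31.6 and 46.8 TPM, with Kcnip2 at 39.6 and 47.1 TPM) and above it in both Control libraries. Kcnk1, a K2P leak channel gene, stood at 36.4 ± 6.35 TPM in cKO and 31.4 ± 1.64 TPM in Control, and its spread met that of Kcnip3 at 34.0 ± 5.86 and 30.9 ± 1.64 TPM. Kcne1l, a KCNE gene on the X chromosome, held 22.4 ± 1.26 and 22.4 ± 0.390 TPM. Kcnip3 and Kcne1l are named here for their level after values were seen. Thus 5 of the 7 members above 20 TPM were auxiliary subunits.

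**Figure D1:**
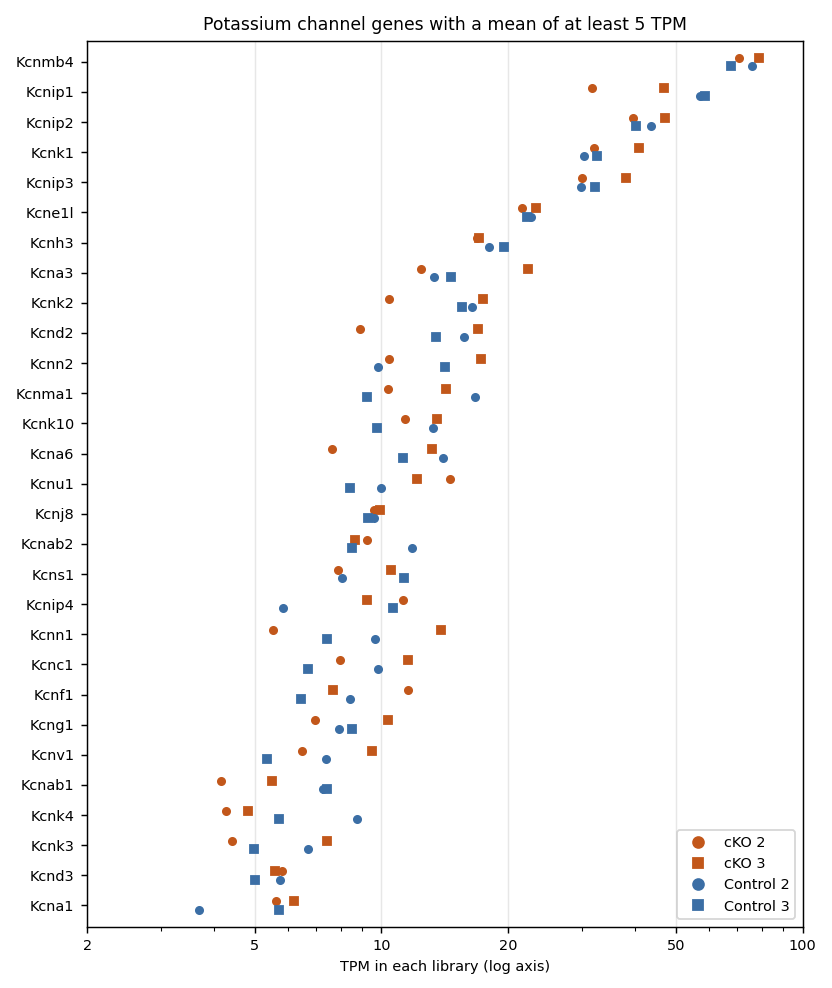
TPM of each library (log axis) for 29 potassium channel genes with a mean of at least 5 TPM, ordered by mean. Orange marks cKO and blue Control, circles replicate 2 and squares replicate 3. Kcnmb4 is highest in mean, and for Kcnip1 (31.6 and 46.8 TPM in cKO) both cKO points lie left of both Control points.

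The most abundant Kv alpha subunit genes came from several families. Kcna3 of the Kv1 family, whose channels sit on axons and also on lymphocytes and microglia, had 12.4 and 22.3 TPM in cKO and 13.3 and 14.6 TPM in Control. Kcna6 and Kcna1, also Kv1, averaged 10.4 ± 3.90 and 5.91 ± 0.422 TPM in cKO and 12.6 ± 1.97 and 4.71 ± 1.44 TPM in Control. Kcnd2, the Kv4 gene behind the dendritic A-type current, had 8.91 and 16.9 TPM in cKO and 15.7 and 13.4 TPM in Control, so the cKO libraries lay on both sides of the Control libraries. Its relatives Kcnd3 and Kcnd1 averaged 5.69 ± 0.157 and 1.68 ± 0.257 TPM in cKO and 5.37 ± 0.506 and 2.29 ± 0.366 TPM in Control. Kcnb2, a Kv2 delayed rectifier gene, averaged 5.14 ± 2.90 TPM in cKO and 4.61 ± 1.98 TPM in Control. Of the Kv3 family, which lets fast-spiking neurons fire at high rates, Kcnc1 averaged 9.76 ± 2.52 TPM in cKO and 8.25 ± 2.19 TPM in Control, and Kcnc4 2.89 ± 0.841 and 4.33 ± 1.59 TPM. Electrically silent subunits, which only work within Kv2 tetramers, were represented by Kcns1 (9.21 ± 1.86 TPM in cKO, 9.69 ± 2.33 TPM in Control), Kcnf1 (9.60 ± 2.74 and 7.44 ± 1.40 TPM), Kcng1 (8.66 ± 2.42 and 8.20 ± 0.411 TPM) and Kcnv1 (7.97 ± 2.12 and 6.38 ± 1.44 TPM). Summed, the silent subunits reached 41.3 and 47.8 TPM in cKO and 39.2 and 39.8 TPM in Control.

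Among the other pore-forming classes, Kcnh3, an ELK channel gene of the forebrain, had 16.9 and 17.0 TPM in cKO and 18.0 and 19.5 TPM in Control. By gene span, Mcrs1 overlaps Kcnh3 on the opposite strand with up to 5135 counts in a library. The kit does not mark the strand, and overlap of exons was not examined. The ERG genes Kcnh7 and Kcnh2 (Kcnh2 also serves cardiac repolarisation) averaged 4.48 ± 0.0516 and 3.17 ± 1.03 TPM in cKO and 3.41 ± 0.838 and 4.67 ± 0.245 TPM in Control. Kcnn2, an SK channel gene, averaged 13.8 ± 4.80 TPM in cKO and had 9.80 and 14.1 TPM in Control. Kcnma1, the BK pore gene, averaged 12.3 ± 2.75 TPM in cKO and 12.9 ± 5.27 TPM in Control. Kcnu1, of the same family, averaged 13.3 ± 1.69 TPM in cKO and 9.21 ± 1.09 TPM in Control. The K2P genes Kcnk2 and Kcnk10, both of the mechanosensitive TREK group, averaged 13.9 ± 4.93 and 12.5 ± 1.54 TPM in cKO and 15.9 ± 0.618 and 11.5 ± 2.47 TPM in Control. Kcnj8, the pore of the vascular ATP-sensitive channel and a pericyte gene, was even between libraries: it held 9.62 and 9.93 TPM in cKO and 9.57 and 9.30 TPM in Control. Kcnj3, a G-protein-gated Kir gene, averaged 3.83 ± 0.558 and 4.00 ± 0.774 TPM, and Kcnq5, an M-current subunit gene, 2.19 ± 0.209 and 2.01 ± 0.786 TPM in cKO and Control.

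Between genotypes, no potassium channel gene passed the threshold. Of the 85 members 79 passed the filter on low counts and were tested, and none was higher or lower in cKO at an edgeR adjusted p below 0.05. Over all 17017 tested genes, 8 passed (0.047%), of which 1 was higher (0.00588%) and 7 were lower (0.0411%). DESeq2 called 1 member, Kcnk5, as lower. It called 185 genes in all (1.09%), 80 higher (0.47%) and 105 lower (0.617%). At an unadjusted edgeR p below 0.05 there were 7 lower and 1 higher members, 10.1% of those tested, against 10.9% of all tested genes, so the members' share was near the background. Lower genes at that limit made up 5.66% and higher genes 5.28% of all tested genes. For 32 of 79 members both cKO libraries lay on 1 side of both Control libraries in CPM (10 higher in cKO, 22 lower). Among all tested genes the share was 44.1%, with 22% higher and 22.2% lower. Their median log2 fold change was -0.05 with 42 of 79 negative, beside a median of -0.0021 and 50.2% negative over all tested genes. The count of 7 lower members became 4 without Control 3 and 14 without cKO 3, the male library, and the count of 1 higher member became 3 without cKO 2 and 0 without Control 3. The share of all tested genes at that limit, in both directions, also moved, to 4.87% without Control 3, 13% without cKO 3 and 12.9% without cKO 2. The members' median lay between -0.17 (without cKO 3) and 0.01 (without cKO 2).

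**Figure D2:**
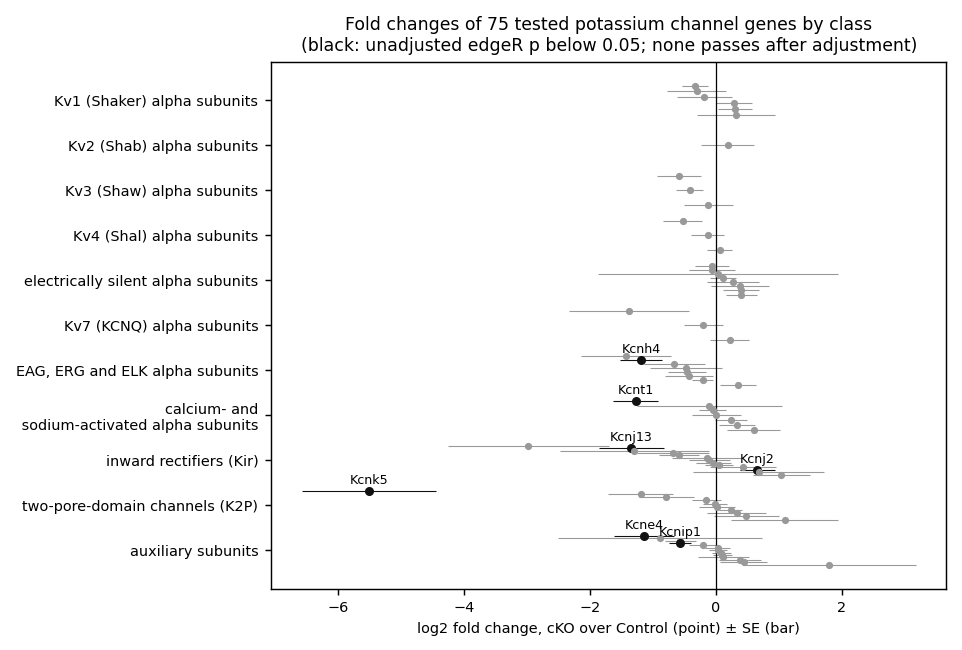
Log2 fold change of cKO over Control with its standard error for 75 of the 79 tested potassium channel genes, grouped by class. Black points with names are genes with an unadjusted edgeR p below 0.05: Kcnj2 lies right of 0 and the others left of it, and no gene passes after adjustment.

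Kcnk5 encodes TASK-2, a K2P channel that opens in alkaline conditions and is known from kidney and brainstem chemoreceptor cells. It was read 1 and 1 times in cKO 2 and cKO 3, against 24 and 73 times in Control 2 and Control 3. All 4 libraries were therefore low, and both cKO libraries lay below both Control libraries. The cKO libraries together had 2 counts and the Control libraries 97. Scaled for depth, cKO stood at 0.0194 times Control, with a 95% exact (Clopper-Pearson) interval of 0.00232 to 0.0720 that covers counting error only. The fitted log2 fold change was -5.51 with an SE of 1.07; the edgeR adjusted p was 0.245 and the DESeq2 adjusted p was 0.0179. Over all alternatives the adjusted p lay between 0.0179 and 0.919. Kcnk5 lies on chromosome 14 (20190125 to 20231877, GRCm39, minus strand), and no other gene of the table with counts overlapped it. Its nearest tested neighbour Saysd1, 1.52 kb away and chosen for its position after values were seen, had 18.9 and 18.0 CPM in cKO and 26.3 and 33.6 CPM in Control (log2 fold change -0.70, SE 0.22, edgeR adjusted p = 0.379). Over the 30 tested genes within 1 Mb of Kcnk5 the median log2 fold change was -0.02, and 9 of them (30%) did not overlap between groups, against 44.1% of all tested genes.

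Among the other alpha subunits, Kcnt1 and Kcnh4 were lower at the unadjusted limit without passing after adjustment. Kcnt1 encodes Slack, a sodium-activated channel mutated in infantile epilepsies. It stood at 6.00 and 11.3 CPM in cKO 2 and cKO 3, against 24.5 and 17.5 CPM in Control 2 and Control 3, and the groups did not overlap (log2 fold change -1.27, SE 0.36, edgeR adjusted p = 0.343). Kcnh4, an ELK channel gene, stood at 3.90 and 5.30 CPM in cKO and at 10.1 and 10.9 CPM in Control, again without overlap (edgeR adjusted p = 0.338, log2 fold change -1.19, SE 0.33). The 8 genes of the EAG, ERG and ELK class included 7 with a negative fold change and 5 without overlap, all lower in cKO, with a median of -0.47. Over all tested genes 50.2% were negative and 22.2% were lower without overlap, and whether the class differs from them was not tested. The exception in sign was Kcnh7, at 16.8 and 11.6 CPM in cKO and 10.4 and 11.9 CPM in Control. The class members named by level had log2 fold changes of -0.21 (SE 0.17, Kcnh3), 0.35 (SE 0.29, Kcnh7) and -0.46 (SE 0.31, Kcnh2), with edgeR adjusted p-values of 0.686, 0.698 and 0.628 in that order.

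Of the auxiliary genes, Kcnip1 had 42.4 and 54.0 CPM in cKO 2 and cKO 3 and 69.6 and 73.5 CPM in Control 2 and Control 3. It had the highest CPM of the 7 lower members (edgeR adjusted p = 0.363, log2 fold change -0.57, SE 0.17). Of the other abundant Kv4 partners, Kcnip2 overlapped between groups, with 62.6 and 66.6 CPM in cKO and 66.1 and 60.4 CPM in Control (log2 fold change 0.03, SE 0.15). Kcnip3 overlapped too, with 63.0 and 71.5 CPM in cKO and 59.8 and 65.6 CPM in Control (log2 fold change 0.10, SE 0.15). Kcnmb1, which overlaps Kcnip1 on the opposite strand, had at most 13 counts. Kcne4, a KCNE gene that inhibits several Kv channels, had 2.00 and 1.97 CPM in cKO and 3.51 and 5.23 CPM in Control (log2 fold change -1.14, SE 0.48, edgeR adjusted p = 0.453). Kcnmb4, the most abundant member, had 57.2 and 55.5 CPM in cKO and 54.9 and 51.5 CPM in Control, a log2 fold change of 0.08 (SE 0.15).

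The inward rectifiers held the only higher member at the unadjusted limit. Kcnj2, a strong inward rectifier of the Kir2 group, had 11.4 and 13.8 CPM in cKO and 7.74 and 8.27 CPM in Control (log2 fold change 0.66, SE 0.28, edgeR adjusted p = 0.454). Its close relative Kcnj12, named after its values were seen, also lay higher without overlap, at 3.90 and 5.08 CPM in cKO and 2.34 and 2.03 CPM in Control (log2 fold change 1.04, SE 0.46). The Kir2 gene Kcnj4 had 5.79 and 5.56 CPM in cKO and 7.79 and 9.19 CPM in Control (log2 fold change -0.58, SE 0.32), and Kcnj14, named after its values were seen, was read 0 and 7 times in cKO and 28 and 23 times in Control. The Kir2 genes therefore lay on both sides, each without overlap and none past the threshold. Groups did not overlap for 44.1% of all tested genes and for 5 of the 13 tested inward rectifiers (38.5%). Kcnj13 encodes a Kir channel of the choroid plexus and retinal pigment epithelium, and it had 2.26 and 1.23 CPM in cKO against 4.43 and 4.42 CPM in Control (log2 fold change -1.34, SE 0.51, edgeR adjusted p = 0.427). By gene span, Gigyf2 overlaps Kcnj13 on the opposite strand with up to 937 counts in a library. The kit does not mark the strand, and overlap of exons was not examined.

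**Figure D3:**
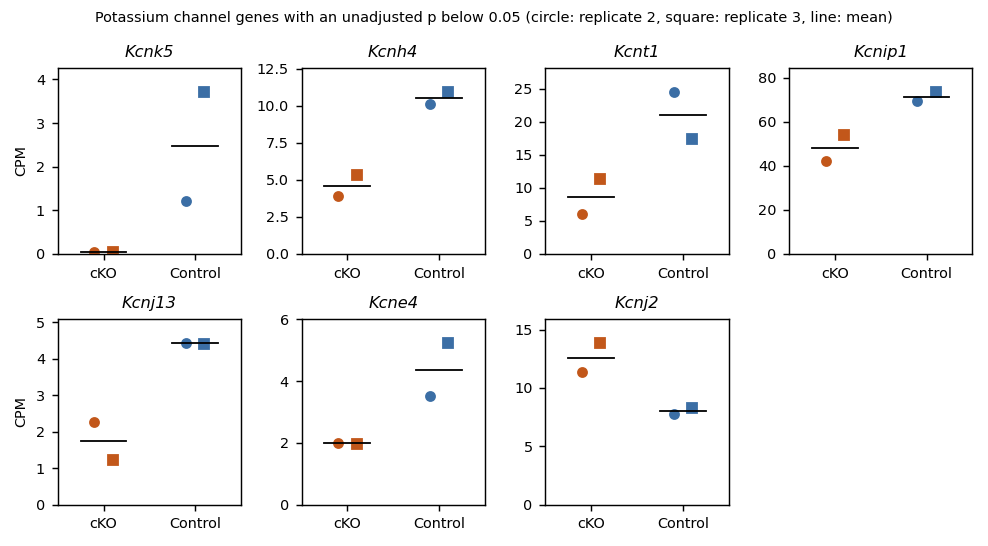
CPM (axes from 0) of 7 potassium channel genes with an unadjusted edgeR p below 0.05 in each library, cKO at the left and Control at the right of each panel, with the mean as a line. The groups do not overlap in any of the 7 panels, and Kcnj2 is the gene that is higher in cKO. Picking genes at that limit favours groups that do not overlap, and 44.1% of all tested genes did not.

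The remaining members named by level or as the smallest p of their class did not reach the unadjusted limit. Without overlap but short of the threshold were Kcna6 (log2 fold change -0.33, SE 0.20), Kcnc1 (-0.42, SE 0.21) and Kcnd1 (-0.53, SE 0.31), all lower in cKO, and Kcna1 (0.29, SE 0.28), Kcnv1 (0.41, SE 0.25), Kcnu1 (0.34, SE 0.29) and Kcnk1 (0.23, SE 0.18), all higher. Their edgeR adjusted p-values ran from 0.523 to 0.745. Overlapping groups were seen for Kcna3 (0.30, SE 0.27), Kcnb2 (0.19, SE 0.42), Kcnc4 (-0.58, SE 0.35), Kcnd2 (-0.13, SE 0.26), Kcnd3 (0.06, SE 0.20), Kcnq5 (0.22, SE 0.31), Kcnn2 (0.24, SE 0.25), Kcnma1 (-0.05, SE 0.22), Kcns1 (-0.06, SE 0.27), Kcnf1 (0.39, SE 0.29), Kcng1 (0.11, SE 0.21), Kcnj3 (-0.04, SE 0.28), Kcnj8 (0.06, SE 0.22), Kcnk2 (-0.15, SE 0.24) and Kcnk10 (-0.02, SE 0.19). Of the 35 named members 13 changed sign in some alternative.

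The spread between replicates was described within each group. Over the 66 tested members with a mean of at least 1 TPM, the higher library exceeded the lower by a median of 1.30-fold in CPM within cKO and 1.18-fold within Control, and 5 and 2 members differed by more than 2-fold. Kcna2, an axonal Kv1 gene, differed most among those read in both cKO libraries, with 5.11 and 25.8 CPM in cKO 2 and cKO 3 and 11.8 and 13.1 CPM in Control 2 and Control 3. Kcnj9, a G-protein-gated Kir gene, had 2.16 and 7.75 CPM in cKO and 9.17 and 6.80 CPM in Control, and the SK gene Kcnn1 had 9.11 and 21.1 CPM in cKO and 16.3 and 13.9 CPM in Control. For Kcna2 and Kcnn1 both Control libraries lay between the cKO libraries, and for Kcnj9 1 did. These genes were named for their spread after values were seen. Of the 79 tested members 49 (62.0%) were higher in cKO 3 than in cKO 2, against 49.9% of all tested genes.

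Striatal projection neuron markers were lower in cKO, whereas most vessel and meningeal markers had positive fold changes. The 17 striatal projection neuron genes summed to 204 and 200 CPM in cKO 2 and cKO 3 and to 646 and 463 CPM in Control 2 and Control 3. All 17 were tested and had a negative log2 fold change (median -1.67), 14 of them at an unadjusted edgeR p below 0.05. Over all tested genes 10.9% reached that limit and 50.2% had a negative log2 fold change. Rxrg passed after adjustment, with 3.37 and 7.84 CPM in cKO and 87.3 and 63.5 CPM in Control. None of the striatal or interneuron markers was at 0 in all libraries. The 16 interneuron genes summed to 1164 and 1130 CPM in cKO and 1343 and 1222 CPM in Control (median -0.20, 12 negative), with Sst at 143 and 126 CPM in cKO and 223 and 203 CPM in Control. Deep-layer projection neuron genes had a median of 0.14, and their sums of 836 and 900 CPM in cKO overlapped the 892 and 873 CPM in Control. At the unadjusted limit 3 of the 11 tested deep-layer genes were lower and 0 were higher. The lower ones included Foxp2, which is also in the striatal list and was counted there too. Kcnh4, Kcnt1 and Kcnip1 were picked as lower members, so their shared direction with the striatal and interneuron lists was fixed in advance. Of the 11 tested astrocyte genes 9, and of the 12 microglia genes 9, also had a negative log2 fold change. The part of any cell type in the values of these members was not tested. Of the endothelium and pericyte genes 10 of 13, and of the meninges and fibroblast genes 10 of 12, had a positive log2 fold change. For the other lists the median log2 fold change was 0.16 (upper-layer neurons), 0.08 (radial glia), 0.60 (intermediate progenitors), -0.14 (astrocytes), 0.05 (oligodendrocyte precursors), -0.19 (microglia), 0.32 (endothelium and pericytes), 0.36 (meninges and fibroblasts), -0.17 (Cajal-Retzius cells) and 0.02 (red blood cells).

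Choroid plexus markers differed widely between libraries of the same group. The 11 genes of the choroid plexus and ependyma list summed to 429 and 73.5 CPM in cKO 2 and cKO 3 and to 880 and 83.4 CPM in Control 2 and Control 3, so both libraries numbered 2 were high (median log2 fold change -0.66, none at 0 in all libraries). Much of the difference between these sums was Ttr, at 335 and 4.99 CPM in cKO and 763 and 7.31 CPM in Control. Prlr, also of the list, did not follow the sum: it was read 0 and 0 times in cKO and 33 and 33 times in Control. Kcne2, a KCNE gene of the choroid plexus epithelium, was read 62 and 0 times in cKO and 110 and 8 times in Control, in the same order as the sum. Kcnj13 was read 43 and 28 times in cKO and 87 and 87 times in Control, so its Control libraries were alike. The Control libraries were also alike for Prlr, Foxj1 and Enpp2 of the list. They differed for Ttr and the other genes of the list, such as Folr1 (16.1 and 0.863 CPM in Control 2 and Control 3). The part of choroid plexus tissue in the difference of Kcnj13 was not tested. Kcne2 is named here for its place in that tissue.

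**Figure D4:**
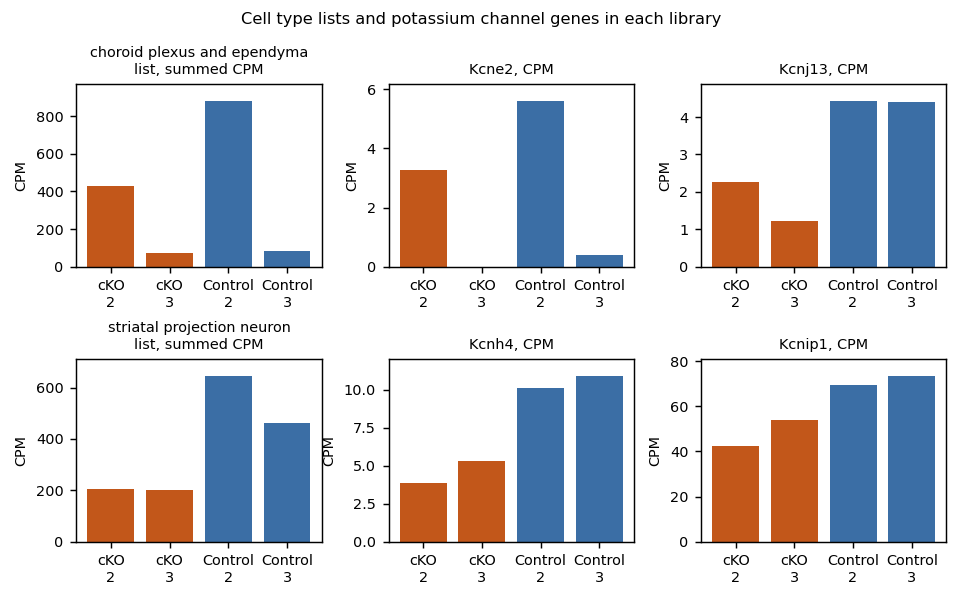
CPM (bars from 0) in each library of the summed choroid plexus and ependyma list with Kcne2 and Kcnj13 (upper row) and of the summed striatal projection neuron list with Kcnh4 and Kcnip1 (lower row). Kcne2 is high in the libraries numbered 2, as the choroid list is, and the striatal list, Kcnh4 and Kcnip1 are lower in both cKO libraries than in both Control libraries. Kcnh4 and Kcnip1 were picked as lower members, so their direction was fixed in advance.

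Partners of the channels that carry other names were examined as a list. Of 17 genes 13 were tested, and Lrrc52 was at 0 in all libraries. At an unadjusted edgeR p below 0.05 Cntn2 and Vapa were higher and Cntnap2 was lower, none passed after adjustment, and the median was 0.17. These made up 23.1% of the tested partners, against 10.9% of all tested genes, and whether the list differs was not tested. Cntnap2 and Cntn2 encode adhesion proteins that cluster Kv1 channels beside the node of Ranvier. Cntnap2 had 53.0 and 51.1 CPM in cKO and 71.3 and 68.8 CPM in Control (log2 fold change -0.43, SE 0.14, edgeR adjusted p = 0.399), and Cntn2 had 273 and 322 CPM in cKO and 209 and 257 CPM in Control (0.35, SE 0.14). Vapa, an ER protein that binds Kv2 channels, had a log2 fold change of 0.27 (SE 0.11). Of the 15 HCN and potassium transport genes, all tested, 1 was lower at that limit and none passed after adjustment (median -0.12, 10 negative). That gene was Slc12a5, which encodes KCC2, the potassium-chloride cotransporter whose rise makes GABA inhibitory: it had 37.3 and 40.7 CPM in cKO and 69.3 and 57.1 CPM in Control (log2 fold change -0.70, SE 0.17, edgeR adjusted p = 0.301).

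At the lower end of the set, 6 members with counts did not pass the filter: Kcna7, Kcnn4, Kcne1, Kcne3, Kcng3 and Kcnj15. Kcna7 was just inside the rule with 5 counts in cKO 2 alone. Kcnn4, an intermediate-conductance calcium-activated channel gene of blood and microglial cells, was read 0 and 48 times in cKO and 6 and 9 times in Control, while Kcne1 and Kcnj15 were read 22 and 23 times in Control 3 and in no other library. The 8 genes outside the rule with 0 counts were Kcna10, Kcnj1, Kcnk7, Kcnk15, Kcnk16, Kcnk18, Kcnmb3 and Kcnv2. A count of 0 in a library allows up to 0.131 to 0.158 CPM (3 counts), so expression under that level was not detectable at this depth.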

How the data were processed

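RNA of 4 cortex libraries, 2 labelled cKO and 2 labelled Control, had been prepared with SMART-Seq v4, which does not mark the strand, per the labels' protocols. The authors' table holds estimated counts per gene, not scaled between libraries, and TPM, scaled per length and library. The authors used DRAGEN and build GRCm39, per the submitters' processing notes. Version, annotation and settings: not given in the sources used here. In each library 12.0% to 13.5% of all 55414 rows held a deposited count that was not whole, so reads can be shared between similar genes. Only 21598 to 21929 rows had a count in a library, so the share among rows with a count was larger.

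Estimated counts were rounded, filtered with edgeR's default (version 4.0.16, R 4.3.3), scaled with TMM and compared with the quasi-likelihood test (genotype only), with Benjamini-Hochberg adjustment over all 17017 genes at 0.05. SE is the absolute log2 fold change over the square root of F. CPM uses TMM-scaled totals. TPM entered no test. The procedure was run on counts simulated from the fitted spread, with changes only in genes above a minimum mean CPM. That run says nothing about members with low counts. Alternatives used RLE or upper-quartile scaling, other filters, DESeq2 (1.42.0), limma-voom (limma 3.58.1), a replicate block, protein-coding genes and each library left out. Named members were those at an unadjusted p below 0.05, those DESeq2 called, the 3 of each class with the highest mean TPM and the smallest p of each class, besides up to 3 genes per list. Members, lists and tests were chosen with earlier results of these data known. Of 188 list genes 186 matched the table. Results for some genes that the naming rule picked are not reported here, and those genes are not drawn.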

Additional observations from a re-analysis of the deposited data

How the results depend on the processing

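The members' count of 0 calls held in every alternative run except DESeq2 (1 lower, Kcnk5). Over all tested genes, calls (1 higher, 7 lower) became 21 and 37 with no filter, 80 and 105 with DESeq2, 2 higher at a mean CPM of at least 1, and 3 higher with limma-voom and with protein-coding genes only; leaving out a library gave 0 higher and 0 to 2 lower. At an unadjusted p below 0.05, higher members (1) were 2 with upper-quartile scaling and 0 with DESeq2, limma-voom, no filter, the replicate block and a minimum mean CPM of 1, and 0 to 3 with a library left out; lower members (7) were 11 with no filter, 4 with DESeq2, 4 with protein-coding genes only and 4 to 14 with a library left out. Over all tested genes the share at that limit, in both directions, was 10.9%, against 8.77% with no filter, 9.83% with DESeq2, 10.5% with protein-coding genes only, 9.13% with the replicate block and 4.87% to 13% with a library left out. The members' median log2 fold change lay between -0.17 and 0.0145 with a library left out.

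Kcnk10 changed sign with upper-quartile scaling (0.022) and with protein-coding genes only (0.0059). With a library left out, signs changed for Kcnip2 (-0.036 to 0.095), Kcnma1 (-0.33 to 0.28), Kcnf1 (-0.052 to 0.74), Kcns1 (-0.32 to 0.24), Kcnj3 (-0.21 to 0.14), Kcnj8 (-0.033 to 0.14), Kcna3 (-0.053 to 0.59), Kcnb2 (-0.51 to 0.65), Kcnd2 (-0.57 to 0.20), Kcnd3 (-0.038 to 0.15), Kcnq5 (-0.055 to 0.54), Kcnk10 (-0.15 to 0.12) and Kcnk2 (-0.49 to 0.12); the cause was not tested. The other 22 named members kept their sign.

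Both groups use the numbers 2 and 3 with no stated link between them, and the differences between replicates 2 and 3 in cKO and Control were uncorrelated across genes (r = -0.0020 over 15279 genes). The replicate block gave 1 higher and 6 lower calls over all genes, 0 among the members, and 6 lower members at an unadjusted p below 0.05. Depth limits the members with few counts, and no count limit for this was tested.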

Other observations

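Outside the protein-coding members, 5 long non-coding RNA genes carry names of potassium channel genes. Kcnmb4os2, which overlaps Kcnmb4 on the opposite strand, had 21.9 and 22.6 TPM in cKO 2 and cKO 3 and 23.8 and 22.3 TPM in Control 2 and Control 3, with 157 and 175 counts in cKO and 152 and 174 in Control. Kcnq1ot1, the imprinted antisense RNA of the Kcnq1 locus, was read 91 and 125 times in cKO and 107 and 120 times in Control, whereas Kcnq1 itself was read 19 and 4 times in cKO and 34 and 26 times in Control. Without strand, reads of such pairs cannot be told apart where their exons overlap. By gene span, introns included, 28 of the 85 potassium channel genes with counts were overlapped by a gene with counts on the opposite strand. Overlap of exons was not examined.

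Counts per TPM give an apparent transcript length, calibrated here on 970 genes with a single listed transcript, of which 54.0% to 63.8% came out within 10% of the listed length. For Kcnc1 the apparent length was 3056 and 2780 bases in cKO 2 and cKO 3 and 4170 and 5438 bases in Control 2 and Control 3. Its CPM values were lower in both cKO libraries (17.6 and 20.6 CPM, against 26.8 and 24.3 CPM in Control), whereas its TPM of 7.98 and 11.5 in cKO overlapped the 9.79 and 6.70 TPM in Control. Kcnu1, known as a sperm channel gene, had 14.5 and 12.1 TPM in cKO and 9.98 and 8.44 TPM in Control, at an apparent length of 1075 and 1182 bases in cKO and 1289 and 1383 bases in Control, against a listed gene length of 3536 bases.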
